A study of Mus musculus with 6 samples.

Results

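The enzymes described here are those of the pentose phosphate pathway and the phosphoribosyl pyrophosphate (PRPP) synthetases, measured as messenger RNA in whole mouse hearts at postnatal day 10. The genes described were Pgd, Pgls, Rpia, Rpe, Tkt, Taldo1, Prps1 and Prps2, 8 of the 9 on the list, and all probe sets that the array's annotation names with 1 of these symbols were taken. This gave 17 probe sets, out of 45037 probe sets and 18193 genes in all. Pgd had 4 probe sets, Rpe, Tkt and Prps2 had 3 each, and Pgls, Rpia, Taldo1 and Prps1 had 1 each. The list was chosen from the pathway, from reports of targets of miR-1 that include Pgd, and from the known difference of Prps2 between these same arrays, in which Prps2 was higher in knockout. Since that choice used the comparison of these arrays, the differences of the members are given as a description, with no p-value, and their counts support nothing.

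Hearts of 3 miR-1-2 knockout mice were compared with hearts of 3 wild-type mice, each mouse on 1 Affymetrix array. miR-1-2 is one of a pair of genes that make the same muscle microRNA, miR-1, and the label names only this gene as lost. The sources used here give no strain, sex or litter and do not say how the gene was inactivated. The level of miR-1 was not analysed here, so there was no check of the genotypes against it. Whole hearts hold many cell types, in which fewer cells of a type and less RNA per cell cannot be told apart.

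In the oxidative branch of the pathway, glucose 6-phosphate is oxidised and NADPH is made, the reducing agent used to regenerate glutathione and to build lipids. The non-oxidative branch converts the resulting ribulose 5-phosphate into ribose 5-phosphate or returns its carbon to glycolysis. The PRPP synthetases join ribose 5-phosphate with pyrophosphate from ATP, and PRPP is then the sugar donor of purine, pyrimidine and NAD synthesis. In human cancer cells PGD and TKT have been reported to be lowered by miR-1.

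Sequence upstream of the genes was taken from RefSeq on build GRCm38.p6, in which all 8 genes matched and Pgd had 2 start sites, giving 9 windows of 250 bases that end just before the start. The windows of Prps2, of its paralog Prps1 and of Tkt are shown because the synthetases had the largest and the smallest difference of the family and Tkt the next largest. Capitals mark the GC box (GGGCGG, bound by Sp1) and the CCAAT box (CCAAT, bound by NF-Y), searched on both strands. Prps2 lies at chrX:167382750-167382999 on the minus strand, Prps1 at chrX:140456353-140456602 on the plus strand and Tkt at chr14:30548881-30549130 on the plus strand.
Prps2: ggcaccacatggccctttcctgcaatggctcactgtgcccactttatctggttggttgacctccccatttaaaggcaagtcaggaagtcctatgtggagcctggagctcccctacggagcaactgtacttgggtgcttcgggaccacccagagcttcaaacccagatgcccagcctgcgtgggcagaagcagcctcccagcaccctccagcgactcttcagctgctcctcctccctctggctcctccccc
Prps1: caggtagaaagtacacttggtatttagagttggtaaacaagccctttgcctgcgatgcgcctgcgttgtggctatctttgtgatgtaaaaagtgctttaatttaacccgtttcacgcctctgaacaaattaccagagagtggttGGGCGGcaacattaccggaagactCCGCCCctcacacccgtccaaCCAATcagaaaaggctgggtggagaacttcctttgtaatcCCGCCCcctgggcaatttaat
Tkt: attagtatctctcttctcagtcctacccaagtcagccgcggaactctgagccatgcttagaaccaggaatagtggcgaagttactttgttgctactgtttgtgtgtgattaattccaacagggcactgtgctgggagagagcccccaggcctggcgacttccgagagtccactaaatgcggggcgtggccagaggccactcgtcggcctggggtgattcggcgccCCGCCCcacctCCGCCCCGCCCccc

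The Prps2 window held no GC box and no CCAAT box. The Prps1 window held 3 GC boxes and 1 CCAAT box, and the Tkt window held 3 GC boxes, of which a pair overlaps by 1 base. A GC box was found in 7 of the 9 member windows, against 32.7% of the 32851 windows in the table, and a CCAAT box in 3 of 9, against 33.8%. An antioxidant response element (TGACNNNGC, the site of NRF2) was found in 0 of 9, against 10.2% of all windows. The E-box CACGTG was in 0 of 9, against 6.02%, and TATAAA in 0 of 9, against 12.4%. The member windows held 48.4% (Prps1) to 64.4% (Pgls) G and C, against a median of 52.4% over all windows. The part of base composition in these counts was not tested. Such matches describe the letters only.

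Array values are log2 expression, on which a difference of 1 is a doubling, and values below about 5 lie near background. Array medians lay between 6.03 and 6.11. Cardiomyocyte markers were bright on all arrays, such as Myl2, the ventricular myosin light chain, at 14.47, 14.48 and 14.52 in knockout against 14.39, 14.49 and 14.46 in wild type. The arrays also differed apart from genotype. Xist, transcribed from the inactive X, was at 7.55, 12.19 and 7.57 in knockout replicates 1, 2 and 3 and at 11.91, 12.13 and 12.08 in wild type. The Y-linked gene Eif2s3y was at 7.63, 2.91 and 8.35 in knockout and at 3.16, 2.85 and 2.99 in wild type, so 2 of the 3 knockout arrays were of the opposite sex from the other 4. Ucp1 of brown fat was high in both first replicates, at 10.39 in knockout and 9.45 in wild type, against 5.22 to 6.68 on the other arrays.

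Prps2 had the largest difference of the family. It encodes one of the PRPP synthetase isoforms. On its brightest probe set, 1454843_at, it was at 8.97, 9.26 and 9.13 in knockout hearts, against 8.61, 8.74 and 8.68 in wild-type hearts. All knockout values lay above all wild-type values, with means of 9.12 ± 0.14 and 8.67 ± 0.067 (SD, n = 3 each). The difference was 0.45 ± 0.09 (SE) on the log2 scale, or 1.36-fold, and 0.304% of all probe sets had a larger one in either direction. Since Prps2 was listed for its difference between these arrays, this share is a description and supports nothing.

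A second Prps2 probe set, 1420638_at, behaved alike at a dimmer level. It was at 5.71, 5.89 and 5.84 in knockout and at 5.36, 5.52 and 5.52 in wild type, again without overlap, and differed by 0.34 ± 0.084 (SE). The remaining one, 1420637_at, did not separate the groups. Its values were 7.16, 6.99 and 7.19 in knockout against 7.11, 7.03 and 6.90 in wild type, a difference of 0.10. The sources used here do not say which stretch of the transcript each probe set covers.

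Prps2 lies on the X chromosome, and the sexes were unevenly spread over the groups. The knockout array with high Xist, replicate 2, is the one that matches the wild-type arrays in this respect. It was 0.58 above the wild-type mean on 1454843_at and 0.42 above it on 1420638_at, and it was the highest knockout array on both, while on 1420637_at it was 0.027 below (1 array against 3). The low-Xist knockout replicates 1 and 3, at 8.97 and 9.13, also lay above every wild-type array on 1454843_at. Of 1127 X-linked probe sets, 48% were higher in knockout, with a median difference of -0.0056, which describes the set and not Prps2 itself. The part of sex in the Prps2 values was not tested, and only 1 knockout array shares the sex of the wild-type arrays. By replicate number, the knockout array exceeded the wild-type array by 0.37, 0.52 and 0.46 on 1454843_at and by 0.34, 0.37 and 0.31 on 1420638_at.

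Prps1, the X-linked isoform whose loss of function causes nerve and hearing disease in humans, did not separate the groups. It was at 8.56, 8.71 and 8.77 in knockout and at 8.63, 8.71 and 8.71 in wild type, a difference of -0.0038 ± 0.08 (SE). Both first replicates were the lowest of their group. A further probe set, 1448192_s_at, is assigned jointly to Prps1 and Prps1l3, so it names neither. It stood at 7.18 on all 3 knockout arrays and at 7.27, 7.20 and 7.22 in wild type, a difference of -0.051 with no overlap.

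**Figure D1:**
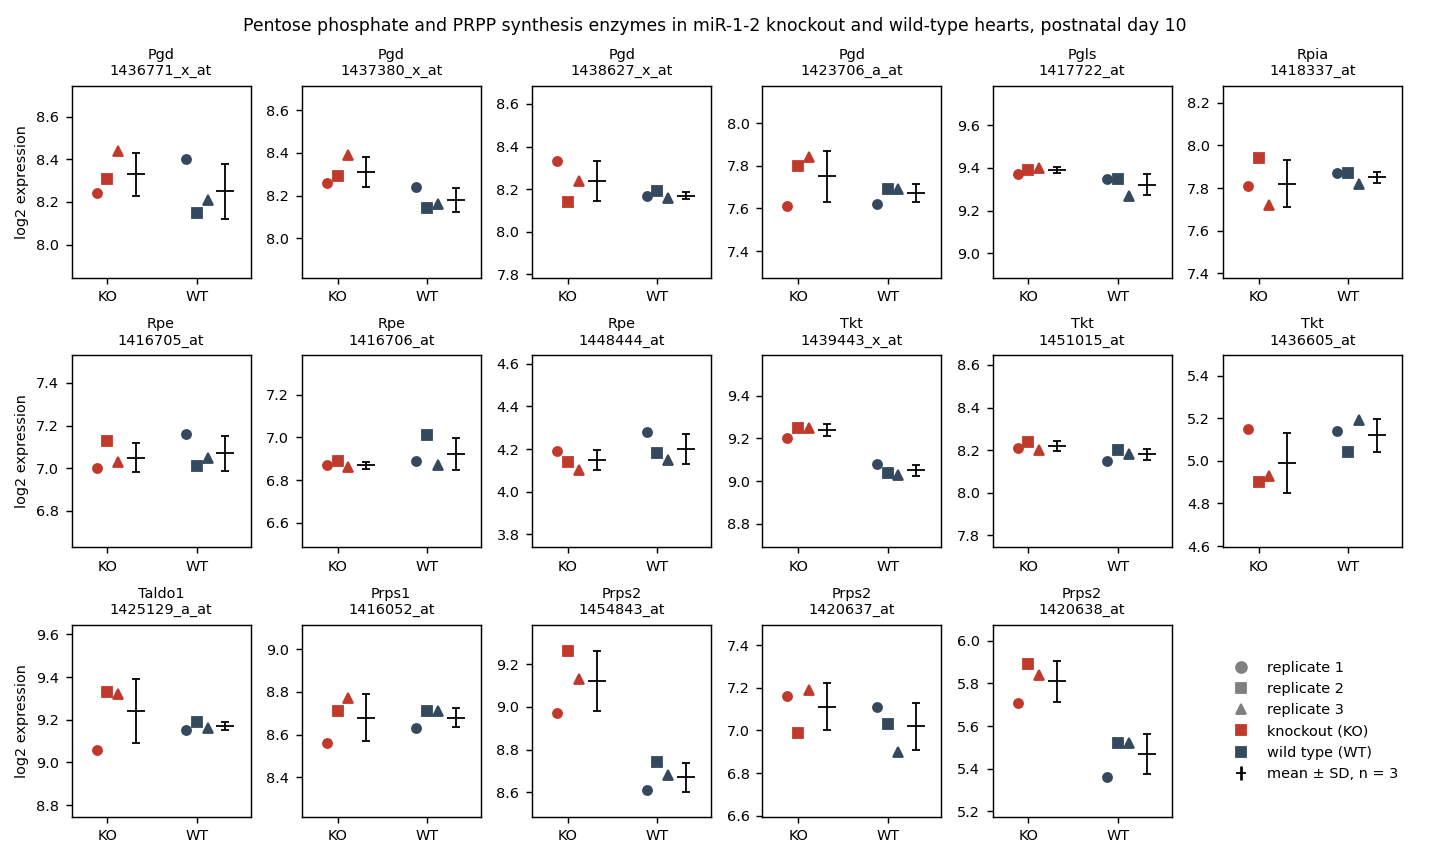
Log2 expression of each of the 17 probe sets on every array, with knockout (red) left of wild type (dark) and symbols for the replicate numbers; bars give mean ± SD (n = 3), and all panels span 0.9 log2 units around different centres. Prps2 is separated on 1454843_at and 1420638_at but not on 1420637_at, and Tkt on 1439443_x_at only.

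In the oxidative branch, Pgls and Pgd were measured. Pgls, which opens the lactone made in the first step of the pathway, was at 9.37, 9.39 and 9.40 in knockout and at 9.35, 9.35 and 9.27 in wild type. The groups did not overlap, but they nearly touched, and the mean difference of 0.063 was smaller than its error of 0.069 (SE). Pgd, the second NADPH-forming enzyme, differed by 0.061 to 0.13 over its 4 probe sets, all with a higher mean in knockout.

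The groups were apart on 1 of these Pgd probe sets, 1437380_x_at, with 8.26, 8.29 and 8.39 in knockout and 8.24, 8.14 and 8.16 in wild type. The brightest, 1436771_x_at, overlapped, since wild-type replicate 1 stood at 8.40 beside 8.15 and 8.21, and knockout was at 8.24, 8.31 and 8.44. On 1423706_a_at, the only Pgd probe set without the suffix _x, values were 7.61, 7.80 and 7.84 in knockout and 7.62, 7.69 and 7.69 in wild type. The suffix _x marks probe sets whose probes may also match other transcripts. On this last one both first replicates were the lowest of their group.

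In the non-oxidative branch, Tkt, the transketolase that moves carbon units between sugar phosphates and glycolytic intermediates, gave different answers on its 3 probe sets. On 1439443_x_at it was at 9.20, 9.25 and 9.25 in knockout and at 9.08, 9.04 and 9.03 in wild type, a difference of 0.19 ± 0.068 (SE) with no overlap. On 1451015_at it was at 8.21, 8.24 and 8.20 against 8.15, 8.20 and 8.18 in wild type, with overlap and a difference of 0.037. The dim 1436605_at, near background, was at 5.15, 4.90 and 4.93 in knockout and at 5.14, 5.04 and 5.19 in wild type, a difference of -0.13 with overlap. The probe set that separated the groups is the one with the suffix _x.

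Taldo1, the transaldolase that works beside transketolase, was at 9.06, 9.33 and 9.32 in knockout and at 9.15, 9.19 and 9.16 in wild type. Knockout replicate 1 lay below all wild-type arrays and the other knockout arrays above them, so the difference of 0.071 ± 0.088 (SE) averages opposite deviations. Without knockout replicate 1 it was 0.16, and without knockout replicate 2 it was 0.026. Rpia, the isomerase that makes ribose 5-phosphate, was at 7.81, 7.94 and 7.72 against 7.87, 7.87 and 7.82 in wild type, a difference of -0.031. Rpe, the epimerase that makes xylulose 5-phosphate for transketolase, differed by -0.022 on 1416705_at, -0.053 on 1416706_at and -0.055 on 1448444_at, and the groups overlapped on all 3. The last of these lay between 4.10 and 4.28 on all arrays, near background.

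**Figure D2:**
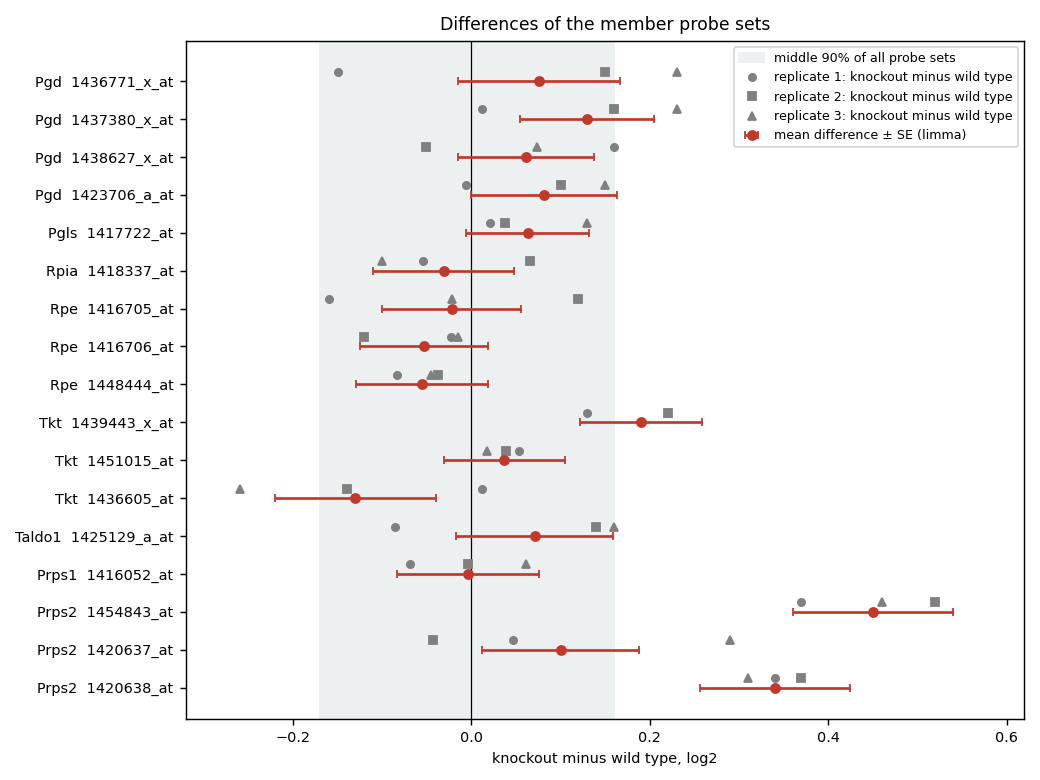
Knockout minus wild type on the log2 scale for each probe set: red points and bars are the mean difference ± SE from limma, grey symbols the difference within each replicate number, and the grey band the middle 90% of all 45037 probe sets (-0.17 to 0.16). The Prps2 probe sets 1454843_at and 1420638_at and Tkt 1439443_x_at lie outside the band, and most other members straddle 0.

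Of the 17 probe sets, 11 had a higher mean in knockout, against 47.1% of all probe sets, with a median difference of 0.063 against -0.0064. The groups did not overlap on 5, all higher in knockout, where 8.7% of all probe sets did not overlap in either direction, 4.05% in that direction and 4.65% in the other. Those 5 belonged to Prps2 (2 probe sets), Tkt, Pgd and Pgls. Without Prps2, 8 of 14 were higher, the median was 0.049, and 3 did not overlap. Several probe sets of a gene share its transcript and are not separate observations.

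In the limma comparison over all probe sets, 0 of the 17 members reached an adjusted p of 0.05, where 0.00666% of all probe sets did. At an unadjusted p under 0.05 there were 3 members, against 3.94% of all probe sets. With the replicate number as a block 0 members passed as well, against 0.0444% of all, and 3 had an unadjusted p under 0.05, against 6.49%. Without Prps2, 1 of 14 was under 0.05 unadjusted, with and without the block. Nothing is read from these counts, since the comparison was used in choosing the list.

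Across arrays, the members were summarised by a median on each array, which does not show whether they moved together. Taking each gene's brightest probe set as a deviation from its own mean over the 6 arrays, the median over the 8 genes was -0.036, 0.081 and 0.10 in knockout replicates 1, 2 and 3 and -0.027, -0.035 and -0.061 in wild type. By this measure knockout replicate 1 sat among the wild-type arrays and the other knockout arrays above them. Over all 17 probe sets the medians were 0.011, 0.047 and 0.087 in knockout against -0.0064, -0.015 and -0.038 in wild type, so knockout replicate 1 was then above every wild-type array, though lowest of its group. With the first replicates left out of both groups, 13 of 17 probe sets were higher in knockout, against 11 with all arrays. The median difference was then 0.084, against -0.0126 over all probe sets, whose share higher in this fit was not counted. This fit leaves out the knockout array that was lowest of its group by these medians, so nothing is read from the rise. Knockout replicate 1 was also high in Ucp1 and lower in proliferation markers than the other knockout arrays, and the part of either in these values was not tested.

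The profile of Prps2 over the 6 arrays was compared with those of all 18193 genes. With predicted genes and clone symbols left out of the pick, the closest were Rbbp9, Cadm4 and Irx5. Likeness was the root mean square difference between log2 values centred on each gene's mean, which was 0.04 for Rbbp9, 0.057 for Cadm4 and 0.062 for Irx5. Rbbp9, a serine hydrolase that binds the retinoblastoma protein, was at 6.21, 6.49 and 6.35 in knockout against 5.91, 5.93 and 5.97 in wild type. Cadm4, a cell adhesion molecule, differed by 0.47, and Irx5, a homeobox factor that represses Kcnd2 in ventricle, by 0.40. These genes were picked for sharing the contrast of Prps2, so their differences follow from the pick.

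Among 14 further genes of pentose phosphate and ribose handling, 5 were higher and 9 lower in knockout, with a median of -0.068 against 0.00048 over all genes. In this comparison 50.2% of all genes were higher and 8.86% did not overlap. With limma 0% passed at an adjusted p of 0.05, while 4.1% had an unadjusted p under 0.05 and 0.0715% passed with the replicate number as a block. These shares over all genes are also the background for the counts of every list below. None of the 14 passed with or without the block, 1 had an unadjusted p under 0.05, and the groups were apart for 2, Prpsap2 and Tktl1. Prpsap2, a regulatory partner of the PRPP synthetases, was at 7.03, 7.18 and 6.97 in knockout and at 6.77, 6.92 and 6.91 in wild type, a difference of 0.19 ± 0.084 (SE). H6pd, which makes NADPH inside the endoplasmic reticulum, was at 7.63, 7.99 and 7.94 against 7.63, 7.72 and 7.71 in wild type, with the first replicates equal. The transketolase-like genes Tktl1 and Tktl2 differed by -0.12 and -0.17 at levels below 5, and Tktl1 by -0.053 with its probe sets averaged. The groups of Tktl1 nearly touched, at 4.63, 4.84 and 4.83 in knockout and 4.91, 4.91 and 4.84 in wild type.

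Of 15 measured genes of purine and pyrimidine synthesis, 6 were higher and 9 lower in knockout (median -0.04). None passed, 1 had an unadjusted p under 0.05, and 3 did not overlap: Ppat, Umps and Cad. Ppat, the amidotransferase that commits PRPP to purines, was lower, at 7.36, 7.26 and 7.12 in knockout against 7.52, 7.47 and 7.48 in wild type (log2 difference -0.24 ± 0.08, SE). Umps, which uses PRPP to make uridine monophosphate, was at 7.70, 7.63 and 7.60 against 7.84, 7.74 and 7.78 in wild type (-0.15). With the probe sets of each gene averaged, the difference of Ppat was -0.13 and that of Umps -0.011. Cad, which carries the first steps of pyrimidine synthesis, was 0.14 higher, and Paics, a later purine enzyme, differed by -0.069 with overlap and by -0.024 with its probe sets averaged.

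Most of the listed salvage and NAD synthesis enzymes that spend PRPP had a lower mean in knockout, with 1 of 5 higher and a median of -0.088. None passed, 1 had an unadjusted p under 0.05, and the groups were apart for Nampt and Aprt. Nampt, which makes the NAD precursor from nicotinamide, was at 7.71, 7.77 and 7.70 in knockout and at 7.81, 7.95 and 7.93 in wild type (-0.17 ± 0.072, SE). Aprt, which salvages adenine, differed by -0.088 and by 0.013 when all its probe sets were averaged. Qprt differed by -0.12 and Naprt by -0.0068, both with overlap, and Naprt ranged from -0.069 to 0.072 over the alternatives.

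Genes that supply NADPH outside the pathway went both ways, with 6 of 14 higher and a median of -0.022. None passed and 4 had an unadjusted p under 0.05, the same 4 whose groups did not overlap: Me1, Me3, Mthfd2l and Nadk. Me1, the cytosolic malic enzyme, was at 9.11 on all 3 knockout arrays and at 9.64, 9.28 and 9.33 in wild type, a difference of -0.31 ± 0.10 (SE). Without wild-type replicate 1, which had the highest Me1, the difference was -0.19. Me3, a mitochondrial malic enzyme, differed by -0.21. Mthfd2l, of mitochondrial folate metabolism, and Nadk, which phosphorylates NAD to NADP, were 0.24 and 0.17 higher; with its probe sets averaged, Mthfd2l was 0.074 higher.

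Of 15 measured genes of glutathione and thioredoxin reduction and other NRF2 targets, 11 had a higher mean in knockout (median 0.053). None passed and 0 had an unadjusted p under 0.05 with limma, with and without the block. Keap1, the inhibitor of NRF2, was at 8.71, 8.83 and 8.74 against 8.61, 8.65 and 8.69 in wild type, a difference of 0.11, which was -0.012 with its probe sets averaged. Nqo1, an NADPH-using quinone reductase and classical NRF2 target, differed by 0.17 with overlap. Gclc, the catalytic subunit of glutathione synthesis, differed by 0.19 with overlap and by -0.067 when probe sets with the suffixes _s and _x were left out, and by 0.063 with its probe sets averaged. Srxn1 was lower without overlap (-0.14, and -0.054 with its probe sets averaged), and Gss, named here after its values were seen, was higher without overlap (0.081).

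At the glycolytic branch point, 5 of 10 measured genes were higher (median -0.0039), none passed and 2 had an unadjusted p under 0.05. Pfkl, the liver-type phosphofructokinase, was at 9.11, 9.32 and 9.40 in knockout and between 8.77 and 9.03 in wild type, without overlap (0.34 ± 0.10, SE), and differed by 0.17 with its probe sets averaged. Hk2, the insulin-responsive hexokinase of muscle, was at 9.53, 9.20 and 9.34 against 9.69, 9.54 and 9.54 in wild type, also without overlap (-0.23). Pfkp differed by 0.11 without overlap, and by -0.0093 with its probe sets averaged, and Hk1 by 0.20 with overlap.

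**Figure D3:**
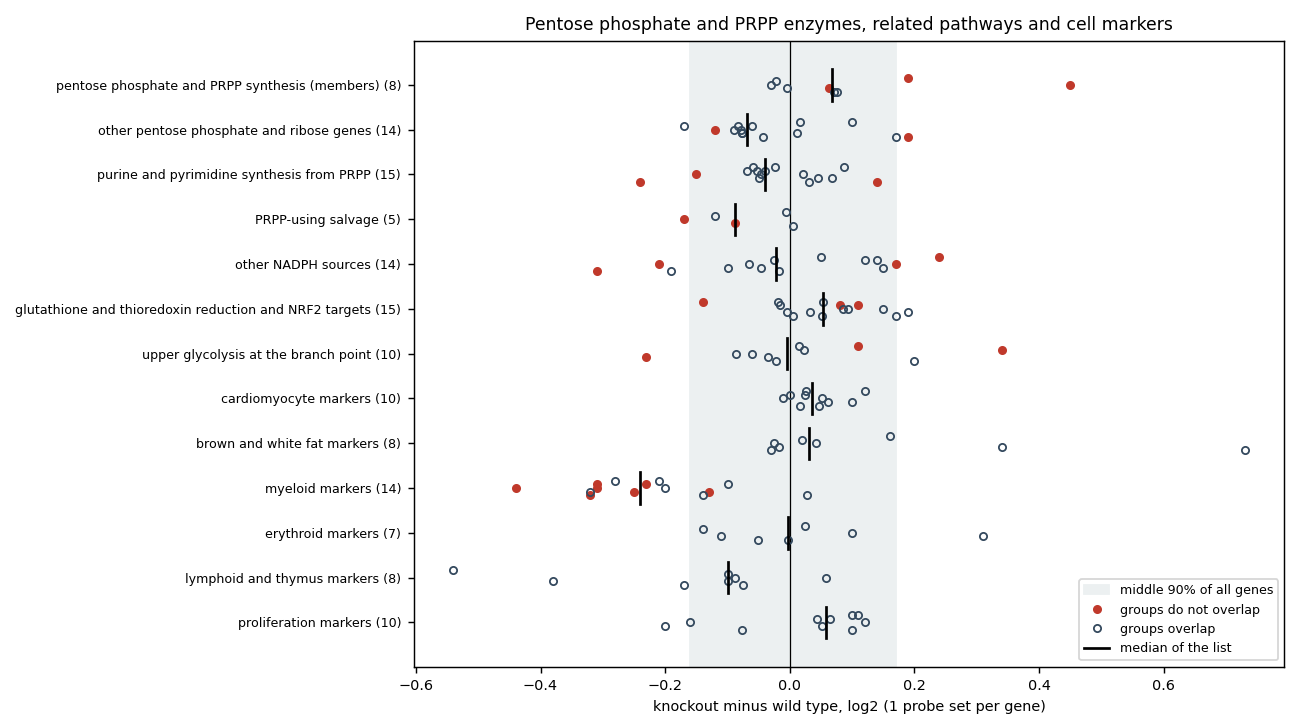
Knockout minus wild type on the log2 scale for each measured gene of each list (number in brackets), 1 probe set per gene; filled red points have groups that do not overlap, open points overlap, black bars are list medians and the grey band is the middle 90% of all 18193 genes (-0.16 to 0.17). Prps2 at 0.45 is the farthest right in the enzyme family, and the myeloid markers lie mostly below 0. The list of X and Y dosage markers is not drawn.

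Markers of other cells were set beside these values. Of 14 myeloid markers 13 had a lower mean in knockout (median -0.24), where 50.2% of all genes had a higher one. The groups did not overlap for 7, against 8.86% of all genes, such as Cd68 (-0.32), Mrc1 (-0.44), Adgre1 (-0.25) and Ctss (-0.23). None passed, and 6 had an unadjusted p under 0.05 with limma, against 4.1% of all genes. The mean level of the myeloid markers was 7.25, 7.18 and 7.07 in knockout against 7.59, 7.25 and 7.35 in wild type. Fat markers had a mean of 8.89, 7.78 and 7.62 in knockout against 8.61, 7.62 and 7.61 in wild type, and 5 of 8 were higher. Of 8 lymphoid and thymus markers 7 had a lower mean in knockout (median -0.10), with list means of 5.87, 5.66 and 5.61 against 6.19, 5.70 and 5.78 in wild type. Erythroid markers were higher in 3 of 7 (median -0.0029), at means of 6.20 to 6.30 in knockout against 6.19 to 6.30 in wild type. Proliferation markers were higher in 7 of 10 (median 0.058), at 7.50, 7.93 and 7.83 against 7.54, 7.79 and 7.89 in wild type. Cardiomyocyte markers were higher in 9 of 10 (median 0.036), at 12.83 to 12.96 in knockout against 12.79 to 12.92 in wild type. No member of these marker lists passed, and their part in the differences of the enzymes was not tested.

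**Figure D4:**
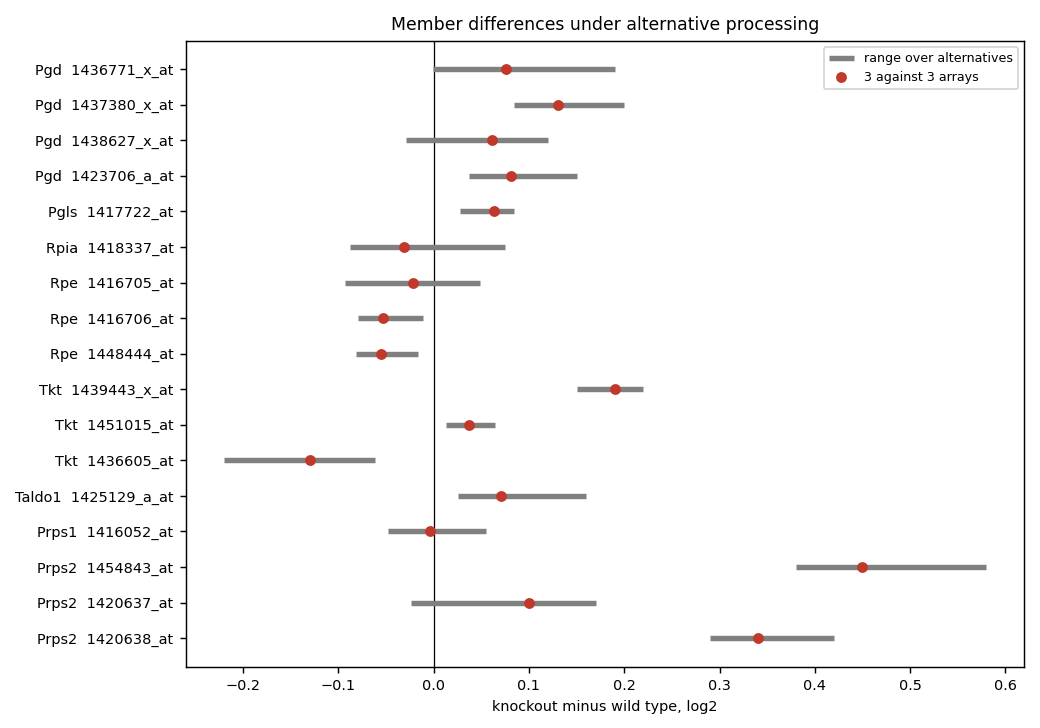
Knockout minus wild type on the log2 scale for each probe set, with the value from 3 against 3 arrays (red) and the range over all alternatives run (grey bar). The Prps2 probe set 1454843_at ranges from 0.38 to 0.58 and Tkt 1439443_x_at from 0.15 to 0.22, while the bars of Prps2 1420637_at, Prps1, Rpia, Rpe 1416705_at, Pgd 1436771_x_at and Pgd 1438627_x_at cross 0.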

How the data were processed

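Heart RNA was isolated with Trizol and, per the labels' protocols, amplified and biotin-labelled. The submitters' processing notes name GCOS 1.4. The file holds log2 values which the authors computed by RMA with the affy package, per the series' design text, and no version of it is stated there. RMA forces arrays to 1 distribution and compresses differences near background. Arrays carry no read depth, and their number limits the precision.

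Without 64 control probe sets, 45037 remained, of which 34945 named 1 gene, 932 several and 9160 none; symbols were updated by identifier through RefSeq. A gene was represented by its brightest probe set. Differences were fitted over all probe sets or genes (limma 3.58.1, R 4.3.3) by lmFit and eBayes, with Benjamini-Hochberg adjustment and a threshold of 0.05. The fit was tested on simulated data with independent noise and shifts larger than any member difference, so that test does not cover differences of the size reported here. One list member is not reported here. The members, lists and tests were chosen with earlier results of these data known. Related genes were named by the 4 smallest p-values of each list, and some list entries were matched by older symbols.

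The titles give both groups replicate numbers 1 to 3. The numbers were taken as pairs on these titles. Across genes, the deviations from the group mean of knockout and wild-type arrays with equal numbers correlated at 0.54, 0.18 and 0.13. For replicates 2 and 3 the values do not favour these pairs. Knockout replicate 3 correlated more with wild-type replicate 2 (0.35), and knockout replicate 2 more with wild-type replicate 3 (0.30). Alternatives were the replicate block, leaving out arrays, a further quantile normalization, filters, variance models, array weights and Xist as a covariate.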

Additional observations from a re-analysis of the deposited data

How the results depend on the processing

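With limma, 0 of the member probe sets passed in any of the 17 alternatives. Of 283 member values under alternatives, 273 moved by less than 1 SD and 18 had the opposite sign. The values of opposite sign lay on 6 probe sets (Prps1, Rpia, Rpe 1416705_at, Pgd 1436771_x_at and 1438627_x_at, and Prps2 1420637_at). None of them came under the further quantile normalization. Many of the 283 values could not move. The replicate block over all arrays, the trend and robust variance and the filters leave a probe set's difference unchanged. The block without replicate 1 repeats the differences of replicates 2 and 3 only. The count of 273 is therefore no measure of stability. Prps2 1454843_at ranged from 0.38 without knockout replicate 2 to 0.58 with Xist as a covariate, and Tkt 1439443_x_at from 0.15 with the further quantile normalization to 0.22 with replicates 2 and 3 only. Over all features, 3 probe sets and 0 genes passed. The count of probe sets was 20 with the replicate block, 55 with the block without replicate 2, 24 with array weights, and 0 after leaving out the dimmest probe sets by mean level, without the _s_at and _x_at probe sets and with the Xist covariate. Trend and robust variance gave 6. The count of genes was 13 with the replicate block, 11 with the block without replicate 1, 36 with the block without replicate 2, 416 with array weights, 3 when each gene's probe sets were averaged and 1 with replicates 2 and 3 only. Leaving out 1 array at a time gave 1 to 15 probe sets (15 without knockout replicate 2, 6 without knockout replicate 1, 1 without any wild-type array in turn) and 0 to 4 genes (4 without knockout replicate 1, 0 without knockout replicate 3). The cause of these shifts was not tested; without replicate 2, knockout and wild-type arrays also differ in sex. Of the 52 related genes and markers named by the rule, 9 passed in some alternative, and 11 had the opposite sign in some alternative. The 52 were named for small p-values in this same comparison, and array weights alone called 416 of all 18193 genes. The share of all genes that passed in some alternative was not counted, so nothing is read from the 9. The named genes that passed were Ppat and Pfkl with array weights (adjusted p = 0.032 for both with limma), the myeloid markers Adgre1 and Mrc1, and the erythroid marker Alas2. The rest were Xist, Eif2s3y, Uty and Kdm6a, from a list of X and Y dosage markers, on which the sexes differ. The replicate block changed no call of a member or a related gene. Signal near background limits the dim probe sets Rpe 1448444_at and Tkt 1436605_at.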
